A study of Mus musculus with 4 samples.

Results

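A set of 9 genes of the red cell lineage was followed across 4 microarrays: Gata1, Klf1, Epor, Tfrc, Alas2, Hba-a1, Slc4a1, Car1 and Car2. They were chosen by name, as every non-control probe whose gene name on the array is 1 of these symbols, which gave 12 probes and 21 spots for 9 genes out of 55669 probes and 35075 genes. All 12 probes were well above background on all 4 arrays, so no gene was lost to a filter on dim signal. That flag was also set on all 4 arrays for 21648 of the 35075 genes.

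The study compared blood stem and progenitor cells of wild-type (WT) mice with those of mice carrying a conditional knockout (cKO) of p38, which the study's title gives as p38 alpha, a stress-activated kinase encoded by Mapk14. Donors were male C57BL/6J mice of the Ly5.2 type, 10 weeks old. Marrow cells of the LSK gate, which lack lineage markers and carry Sca-1 and Kit, were sorted as CD34- Flt3-, called LT-HSC (long-term stem cells), or as CD34+ Flt3+, called MPP (multipotent progenitors). The cells of all 4 groups were then stained with the dye CFSE and given to Ly5.1 congenic hosts irradiated with 9.5 Gy, and dye-positive cells were recovered from host marrow after 16 hours. So no group shows cells that had not been transplanted, and each population of each genotype is 1 array with no replicate. The Cre driver, the deleted exons and the number of mice pooled are not given in the sources used here.

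Red cell production is driven by the transcription factors GATA1 and KLF1, and by erythropoietin acting through its receptor. Committed precursors take up iron through the transferrin receptor, make haem, fill with globin and build a membrane around the anion exchanger band 3. Stem cells carry low levels of many of these transcripts before any commitment, and the level is read here in bulk RNA. In bulk RNA, fewer cells of a type and less RNA per cell cannot be told apart.

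Signals below are the scanner software's processed signal in arbitrary units, and wherever 4 signals follow each other they are, in order, LT-HSC then MPP of WT and LT-HSC then MPP of cKO. Differences are on the log2 scale after each array's 75th percentile was subtracted, so a value of 1 is a 2-fold difference. The ± beside a difference is the scanner software's own error for the pair of spots and covers neither animals nor sorts. With 1 array per group no test of a pair exists, and a difference is read by its size, beside the same quantity for every gene above background on that pair of arrays.

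The arrays were of like quality. Between 62.5% and 70.5% of spots were well above background, the 75th percentile of signal ran from 174.9 to 213.7, and the lowest probe signal that counted as above background ran from 11.7 to 15.4. Cd34, used to sort the groups, read 1169, 7733, 3601 and 6331, and Flt3 read 176.6, 515.1, 189.2 and 365.3, both higher on the MPP arrays of each genotype; Cd34 on the cKO LT-HSC array was above that of WT LT-HSC. Of 17 stem cell and early progenitor markers, 15 were measured on both WT arrays, 2 of them 2-fold or more higher in LT-HSC and 4 lower, with a median of -0.11. Slamf1 was above background only on the LT-HSC arrays, at 26.2 and 19.7, while Procr, also a stem cell marker, was 1.18 lower in WT LT-HSC than in WT MPP. The targeted gene, Mapk14, had a pair of probes. The brighter read 1447, 951.2, 912.2 and 1024, and the dimmer read 474.2, 621.1, 490.5 and 594.5. The knockout minus WT difference was -0.58 in LT-HSC and 0.13 in MPP with the brighter probe, and 0.13 and -0.03 with the dimmer. The deleted exons are not known here, and a probe outside the deleted part would check nothing, so the labels were not checked by this gene.

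Across the 9 genes, taking the brightest probe of each, 5 were 2-fold or more higher in WT LT-HSC than in WT MPP (Gata1, Epor, Hba-a1, Slc4a1 and Car1) and 0 were that much lower. Over the 22516 genes measured on both arrays, 9.18% were 2-fold or more higher and 18% were that much lower. The median of the 9 differences was 1.79, against -0.20 for all genes. In the knockout the same comparison gave 3 genes higher (Gata1, Epor and Car1) and 1 lower (Slc4a1), with a median of 0.35. There 6.7% of 23511 genes were higher and 6.45% lower, with a median of -0.09. Among all genes called at 2-fold in WT, 33.7% were higher in LT-HSC, and 52.5% without scaling between arrays. In cKO these shares were 50.9% and 71.0%. Klf1, Tfrc and Car2 stayed within 2-fold in both, as did Alas2, except that its WT difference was 1.09 without scaling, which made the WT count 6; with normexp and quantile normalization that count was 4.

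Between genotypes, 3 of the 9 genes (Slc4a1, Epor and Hba-a1) were 2-fold or more lower in cKO than in WT LT-HSC and 0 were higher. Over 24258 genes, 7.95% were that much lower and 8.98% higher. The median of the 9 was -0.60 against 0.10 for all genes, and 2 of the 9 lay above 0, as did 58.6% of all genes. In MPP, 1 gene (Slc4a1) was 2-fold or more higher in cKO and 0 were lower, where 1.76% of 22521 genes were higher and 1.9% lower. The median of the 9 was 0.28 against -0.06, and 7 lay above 0, as did 43.6% of all genes. The comparison of LT-HSC with MPP in WT and the comparison of genotypes in LT-HSC both use the WT LT-HSC array, so a high or low reading there moves both.

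**Figure D1:**
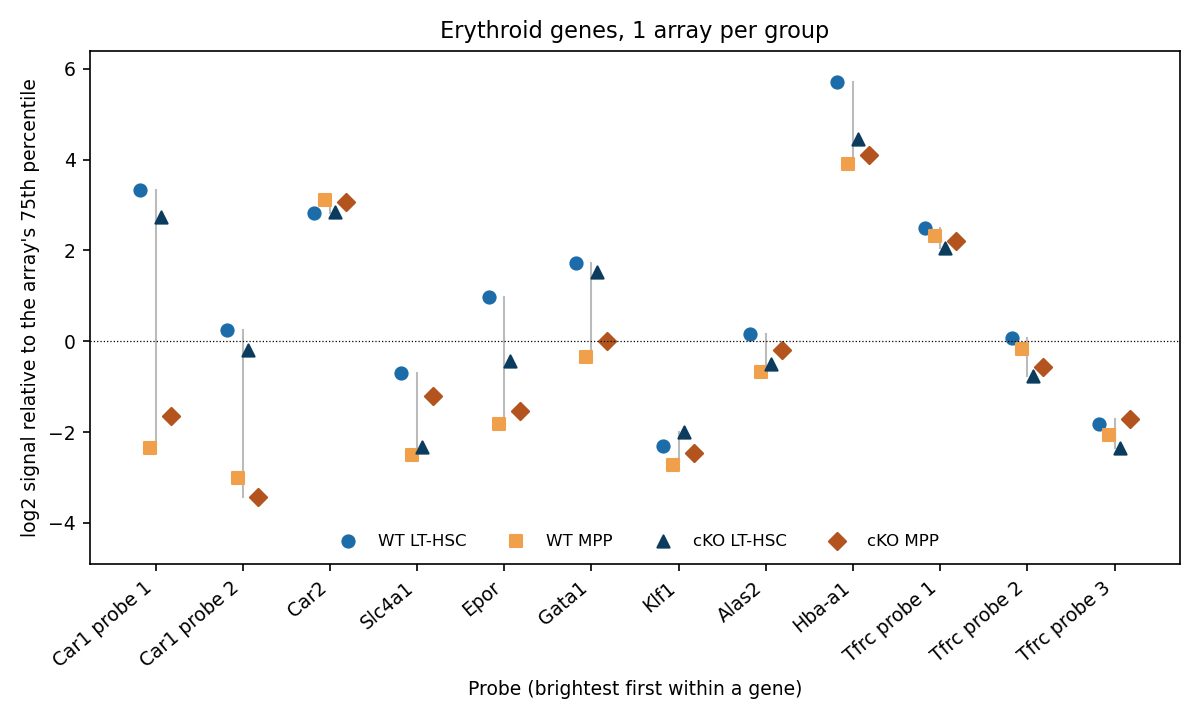
Level of every probe of the 9 genes on each of the 4 arrays, as log2 signal relative to that array's 75th percentile (vertical axis) with 1 symbol per group (1 array each). Car1, Epor, Gata1, Hba-a1 and Klf1 are higher on both LT-HSC arrays than on both MPP arrays. For Klf1 the closest such pair lies within the scanner error. Car2 spans only 1.20-fold.

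**Figure D2:**
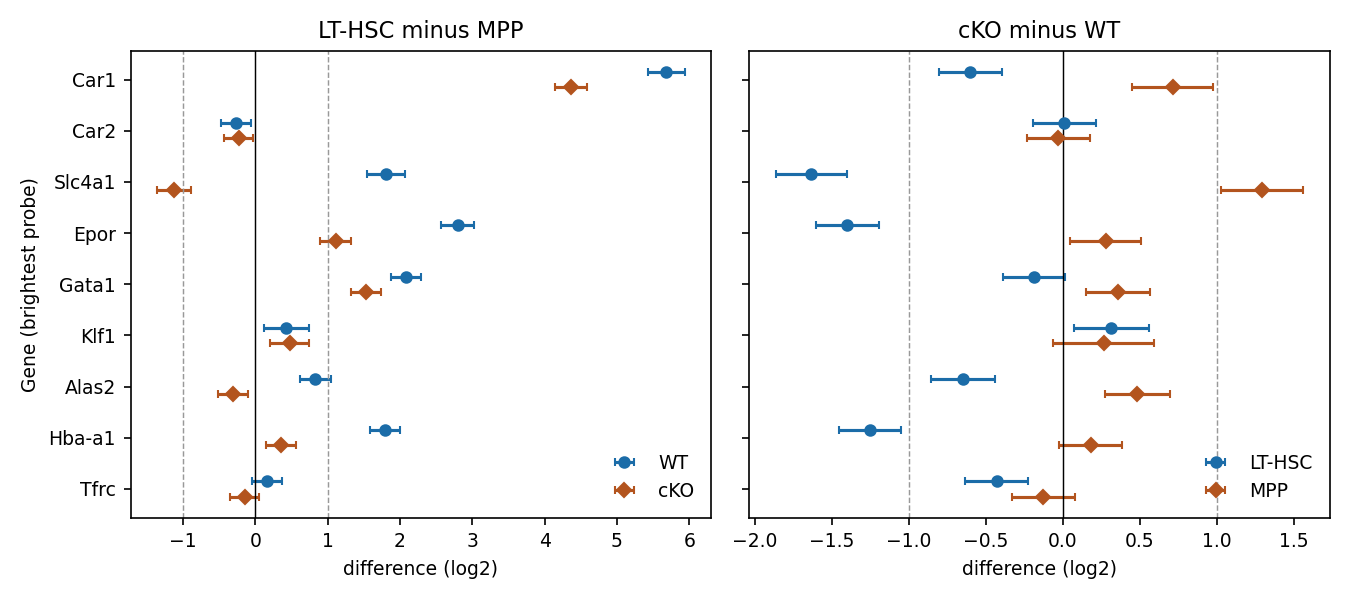
Log2 difference of the brightest probe of each gene, LT-HSC minus MPP (left, by genotype) and cKO minus WT (right, by population). Bars are the scanner software's error and dashed lines mark 2-fold. Slc4a1 lies on opposite sides of 0 in the 2 genotypes and in the 2 populations.

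Promoter sequence was read from RefSeq (GRCm38.p6) for the 250 bases before each start, where the tables held an entry, which they did for Epor, Gata1, Klf1, Alas2, Hba-a1 and Tfrc. The letters GATA, preceded by A or T and followed by A or G, which GATA factors bind, were searched on both strands, as was CCACACCC, which KLF1 binds. In all, 4 promoters held 1 GATA match each, shown in capitals below, in Epor at -54 to -49, in Klf1 at -80 to -75, in Alas2 at -86 to -81 and in Hba-a1 at -183 to -178 relative to the start; Gata1 and Tfrc held none, and CCACACCC was in none of them. Of all 32851 promoters, 26.5% held a GATA match and 3.20% held CCACACCC. Epor, Klf1, Alas2 and Hba-a1 are shown because their promoters hold the match. Gata1, whose promoter held none, was highest in WT LT-HSC and lowest in WT MPP, as were Epor, Alas2 and Hba-a1. A match is a description of the letters alone.

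Epor promoter, chr9:21963577-21963826, minus strand: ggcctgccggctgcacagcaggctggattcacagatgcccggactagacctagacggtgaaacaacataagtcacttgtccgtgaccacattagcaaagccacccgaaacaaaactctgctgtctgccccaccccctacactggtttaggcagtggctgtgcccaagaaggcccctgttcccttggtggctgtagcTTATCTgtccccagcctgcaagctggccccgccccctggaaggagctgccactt
Klf1 promoter, chr8:84901732-84901981, plus strand: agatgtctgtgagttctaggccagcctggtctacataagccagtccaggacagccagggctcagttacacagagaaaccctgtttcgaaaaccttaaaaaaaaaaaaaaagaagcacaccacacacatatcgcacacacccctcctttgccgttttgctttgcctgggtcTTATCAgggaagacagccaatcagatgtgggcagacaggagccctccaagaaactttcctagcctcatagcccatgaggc
Alas2 promoter, chrX:150547167-150547416, plus strand: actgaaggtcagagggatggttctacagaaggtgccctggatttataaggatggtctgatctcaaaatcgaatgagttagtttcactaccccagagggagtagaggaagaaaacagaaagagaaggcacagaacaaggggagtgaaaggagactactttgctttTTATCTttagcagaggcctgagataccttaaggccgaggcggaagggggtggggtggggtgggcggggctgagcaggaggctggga
Hba-a1 promoter, chr11:32283422-32283671, plus strand: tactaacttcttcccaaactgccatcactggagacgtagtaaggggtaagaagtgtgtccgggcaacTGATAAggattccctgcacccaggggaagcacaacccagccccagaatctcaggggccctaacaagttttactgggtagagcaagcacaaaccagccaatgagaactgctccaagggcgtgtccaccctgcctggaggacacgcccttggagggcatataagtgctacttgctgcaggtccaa

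Gata1, the zinc finger factor that red cell and platelet precursors depend on, was measured by 1 probe on the X chromosome (chrX:7536392-7536451, minus strand, mm9 as for all probe positions). Its signal was 704.7 in WT LT-HSC, 139.5 in WT MPP, 585.0 in cKO LT-HSC and 175.2 in cKO MPP. Both LT-HSC arrays read above both MPP arrays, with 1 array of each genotype in a population. The share of all genes with such an order was not counted. The difference was 2.08 ± 0.21 in WT and 1.53 ± 0.21 in cKO. Of the genes measured on each pair of arrays, 97.2% and 96.7% had a lower difference. The 2 LT-HSC arrays differed by 0.19, within the error of 0.20.

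Klf1, the CACCC-box factor of the globin and membrane genes, read 43.3, 26.9, 50.9 and 31.7 (chr8:87428881-87428940, plus strand). These are dim signals, a few times the lowest above background, and spanned 1.67-fold. LT-HSC was above MPP by 0.43 ± 0.31 in WT and 0.48 ± 0.27 in cKO, and the arrays ranked in the middle differed by less than their error. Klf1 therefore did not share the size of the Gata1 difference.

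In the list of erythroid transcription factors and partners, 18 genes were measured on both WT arrays. Of these, 4 were 2-fold or more higher in LT-HSC and 3 were lower, with a median of 0.19. Over all genes 9.18% were higher and 18% lower, and the counts in WT of each list that follows are to be read against these shares. Klf3, a repressor of the same family as Klf1, was higher by 1.57 ± 0.22 with 193.3, 54.3, 49.4 and 31.6. Lmo2, the bridging protein of the GATA1 and TAL1 complex, was lower by 1.18, and Nfe2, a bZIP factor, was lower by 1.16. So genes of this list lay on both sides of 0. In cKO 1 gene was higher and 0 lower, where 6.7% of all genes were higher and 6.45% lower. Between genotypes 0 were higher and 1 lower in LT-HSC, where 8.98% of all genes were higher and 7.95% lower.

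Epor, the erythropoietin receptor, which signals through the kinase JAK2 and the factor STAT5, was measured by 1 probe (chr9:21763422-21763481, minus strand). It read 420.6 in WT LT-HSC, 50.6 in WT MPP, 150.5 in cKO LT-HSC and 60.2 in cKO MPP. WT LT-HSC stood apart, cKO LT-HSC was next and the MPP arrays were lowest, a span of 6.94-fold. LT-HSC was above MPP by 2.80 ± 0.22 in WT and 1.11 ± 0.21 in cKO. In LT-HSC the knockout was 1.40 ± 0.21 lower, and in MPP it was 0.28 ± 0.23 higher. With normexp and quantile normalization the cKO difference between populations was 0.68, under 2-fold.

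All 14 genes of the erythropoietin signalling list were measured on both WT arrays. In WT, 6 were 2-fold or more higher in LT-HSC and 0 were lower, with a median of 0.84. In cKO, 5 were higher and 0 lower, with a median of 0.70, where 6.7% of all genes were higher and 6.45% lower. Cish, an inhibitor of cytokine signalling and a STAT5 target, read 571.6, 67.9, 183.8 and 49.5, higher by 2.81 ± 0.22 in WT LT-HSC. Its order over the 4 arrays differs from that of Epor only at the low end, where the MPP arrays change places. Kit, the stem cell factor receptor, and Stat5a were the lowest, at -0.60 and -0.49. In cKO LT-HSC 4 of the 14 were 2-fold or more lower than in WT and 0 higher. Over all genes 7.95% were lower and 8.98% higher there. The medians in all 4 comparisons kept their sign under each scaling run.

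Tfrc, the transferrin receptor through which cells take up iron, was measured by 3 probes. The brightest (chr16:32632255-32632314, plus strand) was printed in 10 spots and read 1197, 895.3, 839.6 and 804.4, a span of 1.35-fold after scaling. No step in its order exceeded the scanner error. The second probe (chr16:32620470-32620529) read 224.3, 159.5, 119.0 and 118.4, and the third, whose genomic span of 217 bases crosses a junction (chr16:32624877-32625093), read 60.5, 42.7, 39.5 and 53.2. All 3 were lower in cKO than in WT LT-HSC, by 0.43, 0.83 and 0.53. In MPP they disagreed in direction, at -0.13, -0.40 and 0.35.

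Of the iron list, 15 genes were measured on both WT arrays, with 1 higher and 5 lower by 2-fold in LT-HSC and a median of -0.49. Slc11a2, the iron importer of endosomes, was higher by 1.26 with its brightest probe, but another of its probes gave 0.01. Slc40a1, the iron exporter, read 54.5, 305.9, 67.9 and 823.4, and was lower in LT-HSC by 2.75 in WT. Slc40a1 is also in the macrophage marker list, whose summed level was 49.0, 73.4, 41.3 and 159.8 times the 75th percentile. Its part in the iron values was not tested.

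Alas2, the erythroid enzyme of the first step of haem synthesis, read 237.5, 111.5, 143.1 and 153.0 (chrX:147004993-147005052, plus strand). WT LT-HSC was highest and WT MPP lowest, with the knockout arrays between them, so LT-HSC was above MPP by 0.83 ± 0.21 in WT and below it by 0.30 ± 0.21 in cKO. The knockout was 0.65 lower in LT-HSC and 0.48 higher in MPP. The 15 haem synthesis genes had a median of -0.11 in WT, with 1 higher and 5 lower. Uros, which closes the tetrapyrrole ring, was higher by 1.93 ± 0.33, and Tmem14c, a mitochondrial porphyrin carrier, was lower by 2.23 ± 0.20, with 484.3, 1900, 1157 and 1250. That median was 0.15 without scaling.

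Hba-a1 encodes the alpha chain of adult haemoglobin. Its probe (chr11:32183955-32184014, plus strand) carries accessions of both Hba-a1 and Hba-a2, so the copies cannot be split by it. It has 1 open reading frame, and is shown because it reads both genes.

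Hba-a1 probe: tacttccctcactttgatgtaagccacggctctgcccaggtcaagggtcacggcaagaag

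It read 11147 in WT LT-HSC, 2692 in WT MPP, 4417 in cKO LT-HSC and 2992 in cKO MPP. WT LT-HSC stood 1.25 ± 0.20 above the next array, while the other 3 lay closer together. LT-HSC was above MPP by 1.79 ± 0.20 in WT and by 0.35 ± 0.20 in cKO. A probe named for Hba-a2 read 9929, 3644, 6289 and 3798, the same order. Of 5 globins measured on both WT arrays, 3 were 2-fold or more higher in LT-HSC and 0 lower, with a median of 1.19, which kept its sign under every scaling run. These 3 include Hba-a1 and Hba-a2, which are not separate readings because the Hba-a1 probe reads both. The beta chain gene Hbb-bs was higher by 1.30, and Hbb-b2 and Hbb-b1 by 0.54 and 0.59. Ahsp, the alpha globin chaperone, was above background only on the LT-HSC arrays (32.6 and 43.3), at least 1.77-fold higher in WT LT-HSC than in WT MPP and at least 3.14-fold in cKO. These bounds compare the mean signal on the brighter side with the lowest probe signal that counted as above background on the other array (15.42 for WT MPP and 11.97 for cKO MPP), each relative to its array's 75th percentile.

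Slc4a1, band 3, the chloride and bicarbonate exchanger of the red cell membrane, read 131.9 in WT LT-HSC, 31.5 in WT MPP, 40.1 in cKO LT-HSC and 75.7 in cKO MPP (chr11:102210256-102210315, minus strand). WT LT-HSC was highest, cKO MPP second, and the other 2 arrays did not differ beyond their error. On those 2 arrays the signal was dim. The lowest probe signal above background was 15.4 on WT MPP and 12.6 on cKO LT-HSC. LT-HSC was above MPP by 1.81 ± 0.26 in WT and below it by 1.12 ± 0.24 in cKO. The knockout was 1.63 ± 0.23 lower in LT-HSC and 1.30 ± 0.27 higher in MPP. With normexp and quantile normalization these 4 values were 0.92, -0.57, -0.91 and 0.59, so no call at 2-fold was left, and without scaling LT-HSC minus MPP in cKO was -0.92. No other of the 9 genes had a 2-fold difference of opposite sign in the pair of genotypes.

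The red cell membrane list had 13 genes on both WT arrays, 5 higher and 1 lower by 2-fold, with a median of -0.15, which turned positive with quantile normalization (0.05) and without scaling (0.11). Ank1, which anchors band 3 to spectrin, read 1278, 60.3, 795.2 and 82.3, higher by 4.14 ± 0.22 in WT and 3.06 ± 0.21 in cKO. Aqp1, a water channel of red cells and endothelium, read 1027, 49.7, 559.9 and 45.5 with 4.11 ± 0.23. Kel, a blood group glycoprotein, was above background only on the LT-HSC arrays at 224.2 and 20.5, at least 12.1-fold higher in WT LT-HSC than in WT MPP. Bsg, a membrane glycoprotein found in most cells, was lower by 1.55. Epb42, Dmtn, Rhd, Tmod1 and Trim10 were not well above background on any array. The summed level of the stroma and endothelium markers was 45.0, 13.5, 12.2 and 13.1 times the 75th percentile, high on the WT LT-HSC array, and its part in the membrane values was not tested.

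Car1, carbonic anhydrase 1, an enzyme abundant in red cells, was measured by a pair of probes, shown because they differ in how far apart the arrays lie.

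Car1 probe 1: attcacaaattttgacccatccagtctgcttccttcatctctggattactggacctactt
Car1 probe 2: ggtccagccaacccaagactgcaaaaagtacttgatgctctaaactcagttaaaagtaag

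Probe 1 (chr3:14767486-14767545, minus strand) read 2147 in WT LT-HSC, 34.9 in WT MPP, 1338 in cKO LT-HSC and 56.1 in cKO MPP. Both LT-HSC arrays were far above both MPP arrays, a span of 51.3-fold after scaling. LT-HSC exceeded MPP by 5.68 ± 0.25 in WT, rank 56 of 22516 genes, and by 4.37 ± 0.22 in cKO, rank 102 of 23511. Probe 2 (chr3:14770171-14770230) read 255.7, 22.1, 176.3 and 16.3, with differences of 3.27 and 3.23. Between genotypes the probes agreed in LT-HSC (-0.60 and -0.46) and disagreed in MPP (0.71 and -0.41), where their signals were dim. In the list of red cell enzymes and late genes, 22 were measured on both WT arrays, 5 higher and 4 lower by 2-fold, with a median of -0.04, which was 0.22 without scaling. Car1 was the highest of them, followed by Pklr, the red cell pyruvate kinase, at 2.17, and the lowest were Slc22a4 at -2.51 and Prdx2, a peroxidase, at -1.96.

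Car2, carbonic anhydrase 2, an enzyme of red cells and of several other tissues, read 1526, 1535, 1451 and 1475 (chr3:14900206-14900265, plus strand). The 4 arrays spanned 1.20-fold, and LT-HSC lay below MPP by 0.27 ± 0.20 in WT and 0.23 ± 0.20 in cKO. Between genotypes it differed by 0.01 and -0.03, within the error. Car1 and Car2, of the same enzyme family, had the most distant profiles of any pair of the 9, 5.32 apart in Euclidean distance over the 4 centred log2 values. Car2 and Tfrc, both nearly flat, were the closest at 0.41.

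**Figure D3:**
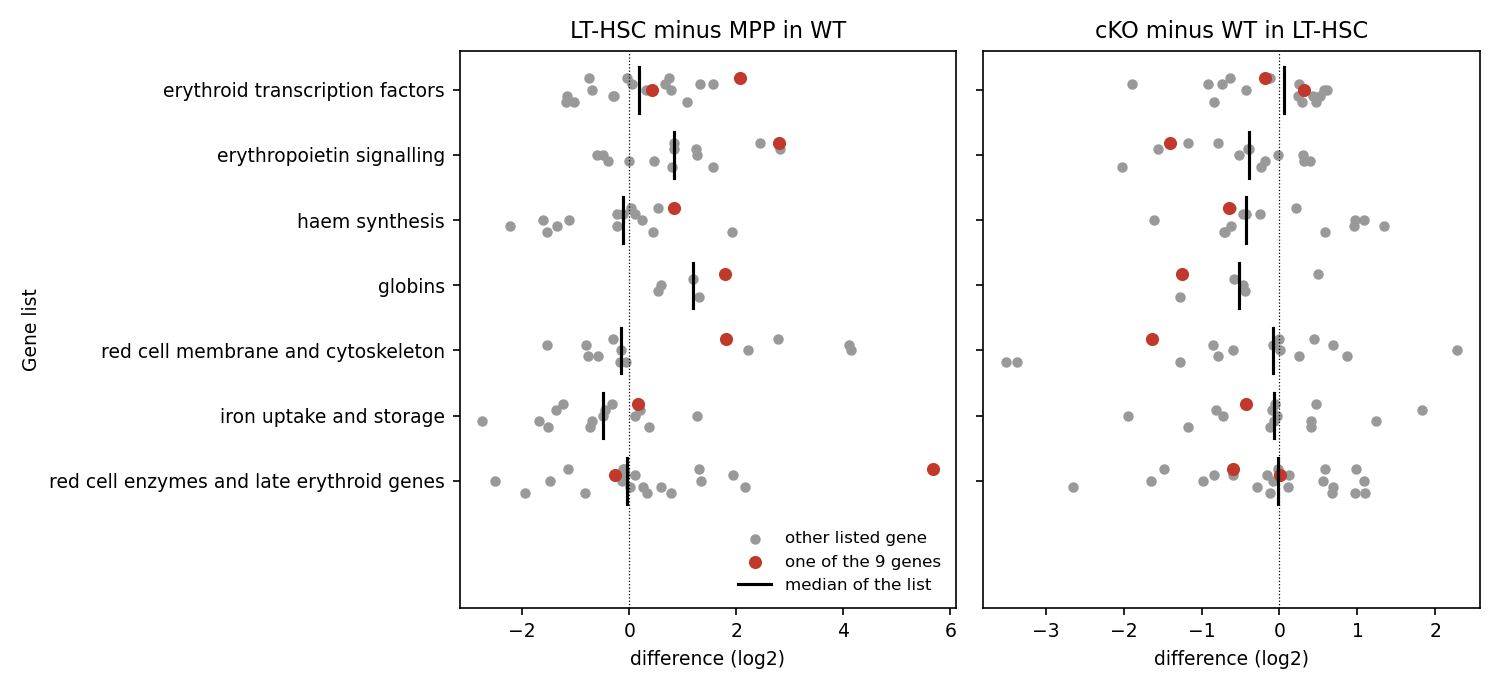
Log2 difference of each gene in 7 lists measured on both arrays, LT-HSC minus MPP in WT (left) and cKO minus WT in LT-HSC (right); red marks the 9 genes, black bars the median of a list. The 2 panels share the WT LT-HSC array. The globin median is 1.19 on the left and -0.52 on the right.

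The counts of listed genes in the other comparisons are small and many lie near the shares over all genes. Over all genes, 8.98% were higher and 7.95% lower in cKO LT-HSC than in WT LT-HSC. In that comparison 2 of 15 haem synthesis genes were 2-fold or more higher in cKO and 1 was lower, 0 of 6 globins were higher and 2 lower, and 1 of 15 membrane genes was higher and 4 lower. The iron list had 2 higher and 2 lower of 15, and the enzyme list 2 higher and 3 lower of 23. In MPP, where 1.76% of all genes were higher and 1.9% lower, the haem, globin and enzyme lists had 0 genes at 2-fold in either direction, the iron list had 2 higher of 16 and the membrane list 1 higher and 1 lower of 14. Between populations in cKO, where 6.7% were higher and 6.45% lower, the globin list had 0 at 2-fold, and the membrane list 4 higher and 1 lower of 13. The iron list there had 0 higher and 4 lower of 16.

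Response to the knockout was set side by side in both populations. The difference between them (cKO minus WT in LT-HSC, less the same in MPP) was -2.93 ± 0.35 for Slc4a1, -1.68 ± 0.31 for Epor, -1.44 ± 0.29 for Hba-a1, -1.31 ± 0.33 for Car1 and -1.13 ± 0.30 for Alas2. It was -0.54 for Gata1, -0.30 for Tfrc, 0.05 for Klf1 and 0.04 for Car2. For Slc4a1, Epor, Alas2 and the brighter Car1 probe the knockout lay below WT in LT-HSC and above it in MPP, beyond the scanner error in each. How many of all genes do so was not counted. The second Car1 probe lay below WT in both (-0.46 and -0.41). Hba-a1 in MPP (0.18) and Gata1 in LT-HSC (-0.19) lay within an error of 0.20. With 1 array per group these differences have no test.

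**Figure D4:**
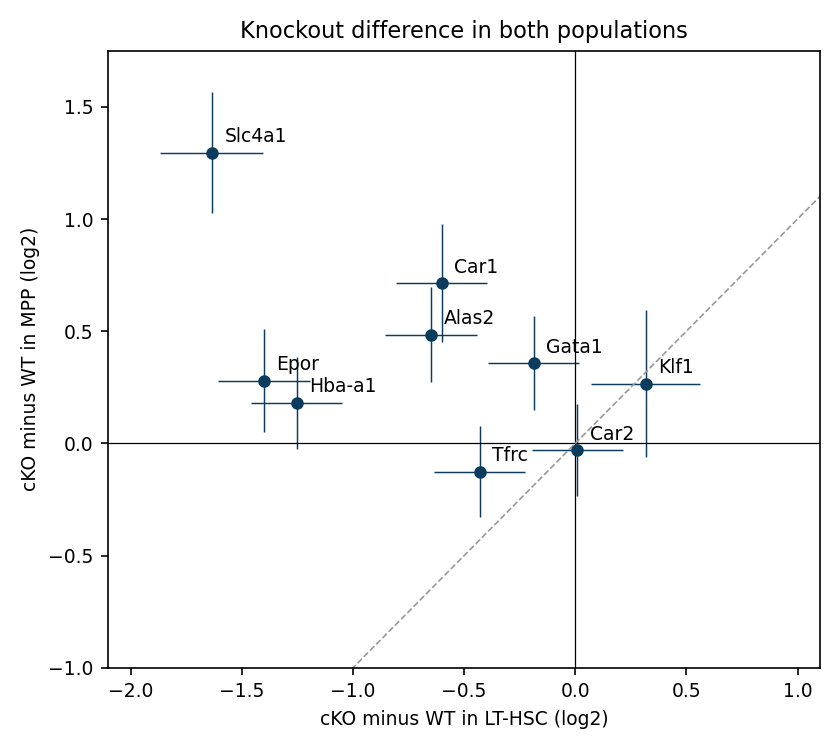
Knockout minus WT difference (log2) in LT-HSC (horizontal axis) against that in MPP (vertical axis) for the 9 genes, with scanner error bars; the dashed line marks equal differences. Slc4a1 lies farthest from the line, at -1.63 and 1.30.

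Summed levels of marker lists were set beside these genes. In multiples of the 75th percentile, the B cell list stood at 110.8, 18.3, 58.4 and 21.7, and 9 of its 15 genes were above background on all 4 arrays. The globin list stood at 110.3, 42.6, 60.8 and 44.8. The neutrophil list stood at 296.2, 254.2, 355.4 and 303.3, with 18 of 18 genes above background on all 4 arrays. The megakaryocyte list stood at 36.0, 21.7, 31.5 and 23.3, with 15 of 18. The T and NK cell list stood at 65.4, 43.8, 61.3 and 44.8, with 8 of 17. The B cell, globin, megakaryocyte, T and NK cell and osteoclast lists all had the array order of Epor. The other marker lists did not. Of the B cell markers, Rag1 was above background on 1 array. The part of these cells in the 9 genes' values was not tested.

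The additive limma fit, with genotype and population as terms and 1 residual degree of freedom, passed 0 of the 9 genes at an adjusted p of 0.05 and 0 of 26003 genes overall (0%) for either term. For population, 3 members (Car1, Gata1 and Epor) had an unadjusted p under 0.05, as did 15.8% of all genes. LT-HSC minus MPP in that fit was 5.02 ± 0.44 (SE) for Car1, with a limma adjusted p of 0.100, 1.80 ± 0.31 for Gata1 with 0.223 and 1.95 ± 0.53 for Epor with 0.289. For genotype the smallest limma adjusted p among the 9 was 0.973, and 3.6% of all genes but 0 members had an unadjusted p under 0.05. A response that differs between populations counts as error in this fit.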

How the data were processed

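RNA from 4 groups was hybridised in 1 colour (Cy3) to 4 Agilent arrays of 1 design (028005, probes placed on mm9), on 1 slide in 1 scan. The authors deposited each array's processed signal intensity, already background-corrected by Feature Extraction (the headers of the files give 10.7.3.1, the submitters' processing notes 9.5.3). The deposited flag scores for background and outlier spots were used to filter. The authors' deposited series table holds a linear ratio to an unstated scale; its differences between arrays matched the scanner files to within 0.05 log2 for 100% of 55237 probes, so its direction is known and its scaling rule is not (column medians 91.9, 107.3, 97.5 and 102.4). Spots of a probe were averaged on log2, outliers left out, and the 75th percentile over non-control probes subtracted. A gene was read by its brightest probe among those well above background on at least 1 array. Probe names were updated through RefSeq accessions for 26762 probes and kept for 28919. In each list the 2 highest and 2 lowest in WT LT-HSC minus MPP were named, with all 9 genes; Kel, Ahsp, Hba-a2 and the genes not above background fall outside that rule and were chosen after their values were seen. Calls are by 2-fold, since 1 array a group gives no replicate and precision is limited by the number of arrays. The additive fit used limma 3.58.1 in R 4.3.3 with Benjamini-Hochberg adjustment over genes above background on at least 2 arrays, checked on simulated data. Alternatives were other percentile, quantile, no scaling, normexp (offset 50) with quantile, the series table, the mean of probes, and other filters. The 9 genes and the lists were chosen with earlier results of these data known. No mm9 annotation was used, so exon and UTR positions of probes are not given.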

Additional observations from a re-analysis of the deposited data

Results flagged for a closer look

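For 5 probes the cKO minus WT difference lay on opposite sides of 0 in the 2 populations, beyond the scanner error in each. How many of all genes do so was not counted. The difference in LT-HSC less that in MPP was -2.93 for Slc4a1, -1.68 for Epor and -1.31 for Car1 with its brighter probe. It was -1.13 for Alas2 and -0.88 for the third Tfrc probe. The other Car1 probe gave -0.05 and the brightest Tfrc probe -0.30, so for these genes the probes differed. Each value rests on 1 array per group and the difference was not tested.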

How the results depend on the processing

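Of the summaries over the 9 genes, 75 values under alternatives stayed within their limits and 5 moved. Of single genes 252 stayed, 36 moved and 0 called values changed sign. Among those that stayed, 36 came from each of the 2 other filters and 36 from the series table. These filters could not move a single gene, since all 12 probes were above background on all 4 arrays. The series table repeats the same signals. Normexp with quantile normalization moved 18 single-gene values and left 18. The median of LT-HSC minus MPP in WT was 2.05 without scaling and 0.92 with normexp and quantile normalization. With normexp and quantile normalization the cKO median was 0.13, the cKO count at 2-fold was 2 against 4, and the count for cKO minus WT in MPP was 0 against 1. There Slc4a1 was 0.92, -0.57, -0.91 and 0.59 in the 4 comparisons in the order of the text, so none of its calls at 2-fold held, and Epor in cKO was 0.68. With the mean of its probes Car1 was 4.48, 3.80, -0.53 and 0.15. Car2 in WT was 0.07 with quantile normalization. The cause was not tested. Scaling moved the all-gene median of LT-HSC minus MPP in WT from -0.20 to 0.06 without scaling, and the share of 2-fold calls that were higher from 33.7% to 52.5%; in cKO that share went from 50.9% to 71.0%. In cKO minus WT, normexp moved it from 48.1% to 66.1% in MPP. The fit's count for population over all genes was 0, and 102, 139, 59, 149 and 58 under the percentile over probes above background on all arrays, no scaling, normexp, mean of probes and probes above background on all 4 arrays; the members passing were 0 in all, with the smallest limma adjusted p of Car1 between 0.0519 and 0.128, and for genotype 0 genes passed in any. No paired analysis was possible because each group has 1 array. Leaving out an array would leave a group empty and was not run.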

Other observations

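Patterns nearest to 3 of the genes, over the 4 centred log2 values among 21648 genes, gave Atp1b1, a sodium pump subunit, at a distance of 0.50 from Car1, beside a pair of Ensembl transcripts at 0.49 and 0.53. The nearest to Epor were Zap70, a T cell kinase, at 0.18, Dennd1c at 0.22 and a probe with no gene name at 0.22. Those nearest to Gata1 were an Ensembl transcript at 0.086, a non-coding probe at 0.14 and Il1b, an inflammatory cytokine, at 0.15. The 4 arrays place few constraints on such nearness. Chosen after its values were seen, Car3, whose probe lies on the same chromosome between those of Car1 and Car2 (chr3:14871781-14871840), read 22.8, 92.9, 18.8 and 57.2, lower in LT-HSC than in MPP in both genotypes, opposite to Car1.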
